A study of Mus musculus with 7 samples.

Results

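The ATP-binding cassette (ABC) transporters of subfamilies A to G were taken as the table rows whose symbol begins with Abc, followed by a subfamily letter from a to g and a number. This gave 49 of 23930 genes, and their levels were compared between cells sorted from mice kept in normocapnia (NC, 3 libraries) and in hypercapnia (HC, 4 libraries). The cells were Pax7-GFP+ cells sorted from digested hind leg muscle of mice with an inducible Pax7-GFP reporter on a C57BL/6 background, in which tamoxifen given to all animals lets a Cre driven by Pax7 (Pax7-Cre+/-, Lox-GFP+/+) switch on GFP for good, so that GFP marks cells that have had Pax7 on and their progeny. Per the labels, mice entered either condition at 12 weeks of age and were collected at 16 weeks, after 4 weeks in room air or in hypercapnia, which the methods of the study give as 10% CO2. Those methods also state that hind leg muscles of both groups were injected with cardiotoxin, which destroys myofibers, 3 days before collection, whereas the labels mention no injury and the table carries a title that names another time, a conflict that could not be settled here. Whether each library came from 1 animal or from a pool is not stated, so the error measures the spread between these libraries.

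ABC proteins share a pair of ATP-binding domains that power the passage of a substrate across a membrane. Subfamily A moves mainly lipids and sterols, B holds the multidrug pump P-glycoprotein, peptide pumps and mitochondrial transporters, C exports organic anions and conjugates and includes the sulfonylurea receptors, D feeds fatty acids to peroxisomes, and G exports sterols and drugs. Members of E and F have no membrane part and work on the ribosome. In muscle, efflux of a dye through Abcg2 has been used to enrich progenitor cells, and macrophages are a classical site of cholesterol export through Abca1 and Abcg1.

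Levels are given as RPM (the reads of a gene rescaled so that each library sums to 1000000) from an AmpliSeq panel, which amplifies 1 short stretch per gene, so a gene can be followed across libraries but levels of different genes are not on a shared scale. Libraries held between 14527445 and 23388710 reads, so that a single read was worth 0.0428 to 0.0688 RPM. Markers of several cell types were present in all 7 libraries, with Pax7 itself between 4.34 and 268 RPM, a satellite and myogenic list of 15 genes summing to 551 to 4831 RPM in normocapnia and 831 to 1783 RPM in hypercapnia, a macrophage list of 15 genes summing to 12549 to 35156 RPM in normocapnia and 20336 to 25422 RPM in hypercapnia, and a fibro-adipogenic list (14 of its 15 genes in the table) summing to 1690 to 3654 and 1642 to 3964 RPM. In such bulk samples, fewer cells of a type and less RNA per cell cannot be told apart. Library NC3 stood apart, since 49.2% of the 12504 genes whose mean reached 1 RPM had their lowest value there. Xist read 445 to 701 RPM in NC1, NC2, HC1 and HC2 and at most 0.125 RPM in NC3, HC3 and HC4, where the Y-linked Ddx3y read 103 to 206 RPM, so both groups mixed libraries of either kind, unequally.

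Throughout, values are listed by replicate number, first the 3 of normocapnia and then the 4 of hypercapnia. Of the 49 ABC genes, 33 had a mean of at least 1 RPM, 23 of at least 10 RPM and 5 of at least 100 RPM. The other 16 stayed at or under 1.15 RPM in every library. The study called genes by a fold over 1.5 together with a p, not adjusted, below 0.05, and these thresholds were kept with limma on log2(RPM + 1). By them 2 ABC genes were higher in hypercapnia, Abcc3 and Abcg3 (1.43% of all genes tested were), and 1 was lower, Abca6 (1.14% of all genes were). These 3 are 6.12% of the 49 genes, beside 2.57% of all genes in either direction, and 9.09% of the 33 at 1 RPM or more, beside 4.75% of all such genes. After Benjamini-Hochberg adjustment over all genes no ABC gene passed 0.05 in limma (lowest adjusted p = 0.827, 4 of 49 with an unadjusted p under 0.05, a share of 8.16% beside 4.66% of all genes), and none of the 23930 genes did (1114 with an unadjusted p under 0.05). On recovered whole reads, edgeR and DESeq2 each called 3 ABC genes higher (Abcc3, Abcd4 and Abcg3) and Abca6 lower by the pair of thresholds, where they called 6.03% and 6.25% of the genes they tested. After adjustment edgeR called 0 genes and DESeq2 29 (0.223%), none of them an ABC gene.

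Library by library, the 33 genes fell into patterns that the group means hide. The 2 groups did not overlap in 7 of the 33, with hypercapnia above in 5 (Abcc3, Abcd4, Abcf3, Abcf1 and Abcb8) and below in 2 (Abca6 and Abca2), a share of 21.2% beside 7.72% of all genes at that level (4.09% with hypercapnia above and 3.63% below) and 14.3% of the 49 beside 4.83% of all genes (2.53% above and 2.3% below). NC3 was the lowest of the 7 libraries in 20 of the 33 (60.6%, beside the 49.2% of all such genes given above), and all 5 genes with hypercapnia above took their lowest value there. The median log2 fold change of the 33 was 0.19, beside 0.16 over all genes at 1 RPM or more. Both medians depended on single libraries, being 0.49 and 0.36 without NC1, 0.32 and 0.17 without NC2, 0.02 and -0.07 without NC3, 0.09 and 0.11 without HC3, and 0.10 and 0.08 without HC4. They also depended on the scaling, at 0.06 and 0.04 with median-of-ratios scaling and -0.015 and -0.0064 with quantile normalization, but 0.15 and -0.0090 with edgeR (low counts filtered) and 0.11 and -0.04 with DESeq2.

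**Figure D1:**
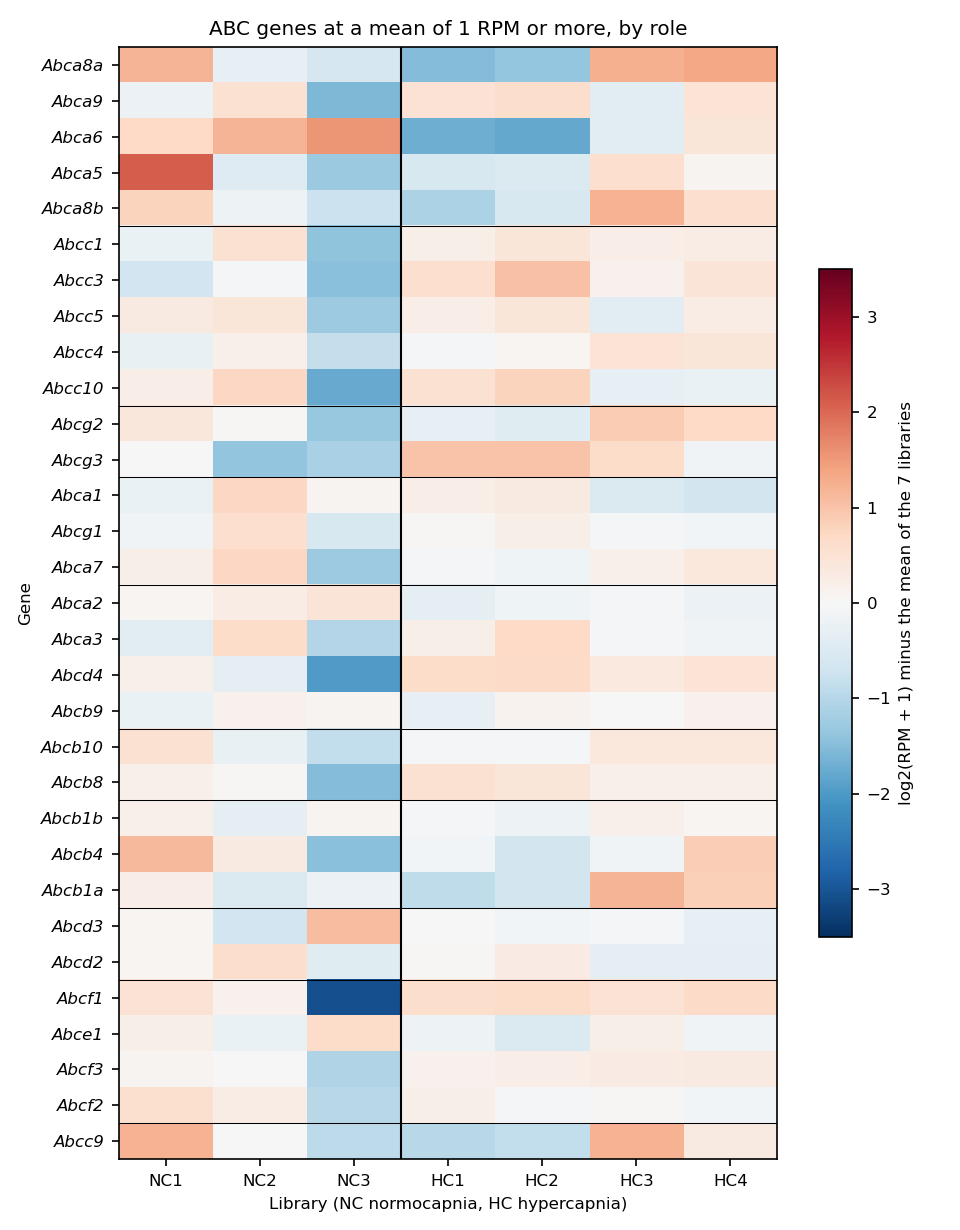
Level of each of 31 ABC genes whose mean reached 1 RPM (rows, grouped by role) in each of the 7 libraries (columns, NC normocapnia, HC hypercapnia), as log2(RPM + 1) minus the gene's mean over the libraries, with red above and blue below that mean. The NC3 column is the lowest in 19 of 31 rows, and HC1 and HC2 resemble each other, as do HC3 and HC4.

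Among the exporters of conjugates in subfamily C, Abcc3 was higher in hypercapnia. Abcc3 (MRP3) exports bile salts and glucuronides. It read 49.4, 75.5 and 28.3 RPM in normocapnia and 119, 162, 88.5 and 108 RPM in hypercapnia. All 4 hypercapnia libraries lay above all 3 normocapnia libraries. Group means were 51.1 ± 23.6 RPM (SD, n = 3) and 119 ± 31.0 RPM (SD, n = 4), and the log2 fold change was 1.28 (SE 0.38, 95% interval 0.34 to 2.23, limma, adjusted p = 0.909), about 2.43-fold. Without NC3, the lowest library, the log2 fold change was 0.92. Within the Xist-high libraries the difference was 1.17, which did not pass at 2 against 2, and it was 1.76 within the others, where only NC3 stood for normocapnia.

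The other 4 subfamily C exporters at 1 RPM or more did not pass. Abcc1 (MRP1), which exports glutathione conjugates and leukotriene C4, read 88.5, 149 and 38.7 RPM in normocapnia and 121, 138, 121 and 123 RPM in hypercapnia. Its hypercapnia libraries lay close together between the extremes of normocapnia (log2 fold change 0.64, SE 0.45). Abcc5, an exporter of cyclic nucleotides, read 44.3, 48.3 and 14.2 RPM against 41.9, 47.9, 26.8 and 42.9 RPM. Abcc4, which carries cyclic nucleotides and prostaglandins, read 24.3, 33.8 and 16.2 RPM against 28.1, 30.8, 41.7 and 39.9 RPM (a log2 fold change of 0.53, SE 0.28, interval -0.17 to 1.23). Abcc10 read 4.64, 6.88 and 0.413 RPM in normocapnia and 2.87 to 7.14 RPM in hypercapnia, with HC2 highest and NC3 lowest. Abcc2, Abcc6 and Abcc12 stayed at or under 0.187 RPM.

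The exporters of conjugates depend on glutathione and conjugating enzymes, and among the 16 such genes measured 0 passed higher and 1 lower. Gstm1, which had the highest reads of that list, read 106, 104 and 17.8 RPM in normocapnia and 99.5, 90.4, 99.3 and 118 RPM in hypercapnia, a difference carried by NC3. The 1 gene that passed was Mgst2, a microsomal glutathione transferase, at 0.535 to 1.10 RPM against 0 to 0.500 RPM, levels that rest on few reads and that lost their call in 13 of 20 alternative settings.

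Abcg3, a rodent relative of the drug pump Abcg2, was higher in hypercapnia. The window around its start is shown because it is the called gene for which RefSeq gave one, with copies of the GC box (GGGCGG, or its reverse complement CCGCCC) in capitals.

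Abcg3, chr5:104982668-104982967, minus strand, GRCm38.p6: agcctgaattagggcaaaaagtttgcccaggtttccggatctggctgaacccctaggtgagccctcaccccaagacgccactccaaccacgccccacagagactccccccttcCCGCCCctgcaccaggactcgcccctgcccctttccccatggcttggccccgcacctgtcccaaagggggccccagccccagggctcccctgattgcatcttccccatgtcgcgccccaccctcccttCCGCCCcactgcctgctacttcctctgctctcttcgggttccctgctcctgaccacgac

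Abcg3 read 6.51, 1.92 and 2.48 RPM in normocapnia and 14.4, 14.3, 11.1 and 6.09 RPM in hypercapnia. The groups overlapped, since HC4 lay just under NC1, and the other 3 hypercapnia libraries lay above every normocapnia library. Means were 3.64 ± 2.50 and 11.5 ± 3.90 RPM, and the log2 fold change was 1.49 (SE 0.45, interval 0.38 to 2.60, limma, adjusted p = 0.909). The call was lost without NC2 (1.22) and without NC3 (1.35). Differences were 1.71 within the Xist-high libraries, which did not pass, and 1.41 within the others.

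Abcg2 itself, the pump behind dye efflux, read 17.7, 13.5 and 4.61 RPM in normocapnia and 10.6, 9.55, 25.1 and 21.7 RPM in hypercapnia. The values in HC3 and HC4 lay above all others and those in HC1 and HC2 below NC1 and NC2, with a log2 fold change of 0.51 (SE 0.56). The direction differed between kinds of library, at -0.57 within the Xist-high ones and 2.12 within the others. The endothelial list of 12 genes summed to 365, 225 and 207 RPM in normocapnia. In hypercapnia it summed to 150.1 and 141 RPM in HC1 and HC2 and to 823 and 629 RPM in HC3 and HC4. The sum in NC3 was above those in HC1 and HC2, although NC3 had the lowest Abcg2. The part of endothelial cells in the Abcg2 values was not tested.

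Abca6 was the only ABC gene lower in hypercapnia at both thresholds. It lies in a row of related genes on chromosome 11 which RefSeq orders as Abca8b, Abca8a, Abca9, Abca6 and Abca5, with no other protein-coding gene between them, and whose substrates are little known. Abca6 read 16.9, 24.2 and 31.3 RPM in normocapnia and 2.40, 2.16, 7.62 and 13.8 RPM in hypercapnia. All hypercapnia libraries lay below all normocapnia libraries, HC4 the nearest. Means were 24.1 ± 7.17 and 6.50 ± 5.49 RPM, with a log2 fold change of -2.01 (SE 0.64, interval -3.60 to -0.41, limma, adjusted p = 0.915). The call was lost without NC2 (-1.98), without NC3 (-1.80) and without HC1 (-1.72). It was -2.70 within the Xist-high libraries, which passed, and -1.51 within the others.

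Over all libraries, the 4 neighbours of Abca6 did not pass and their groups overlapped. Within the Xist-high libraries Abca8a (-1.88), Abca5 (-1.37) and Abca8b (-1.14) were lower in hypercapnia as Abca6 was, and Abca9 was not (0.39). Within the others, where only NC3 stood for normocapnia, they were higher (1.89, 1.63, 1.67 and 1.61 in the same order). Abca8a read 88.0, 31.1 and 25.1 RPM in normocapnia and 12.8, 14.3, 91.5 and 99.9 RPM in hypercapnia. Its hypercapnia libraries thus lay on both sides of normocapnia, HC1 and HC2 below and HC3 and HC4 above. Abca8b read 5.98, 2.57 and 1.38 RPM against 0.856, 1.76, 8.43 and 5.08 RPM, again with HC3 and HC4 above HC1 and HC2, and since it is a close copy of Abca8a the panel may not separate the pair fully. Abca9 read 35.1, 59.2 and 13.1 RPM against 57.8, 62.6, 31.2 and 56.7 RPM (a log2 fold change of 0.72, SE 0.55). Abca5 read 19.98, 2.52 and 0.964 RPM against 2.27, 2.36, 6.25 and 4.13 RPM, so that NC1 alone stood high.

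Abca6 was also set against each neighbour within a library, as the log2 ratio with 1 RPM added to both genes. The ratio of Abca6 to Abca8b was 1.36, 2.82 and 3.76 in normocapnia and 0.87, 0.20, -0.13 and 1.29 in hypercapnia. The groups did not overlap, and the means differed by -2.09. For Abca9 they did not overlap either, at -1.25 to 1.20 in normocapnia and -4.33 to -1.90 in hypercapnia, a difference of -2.72. Against Abca8a (-1.84) and Abca5 (-1.78) the groups overlapped. These ratios were chosen after the values had been seen and hold the values of Abca6 itself, which already separated the groups, so they are given as a description with no test.

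**Figure D2:**
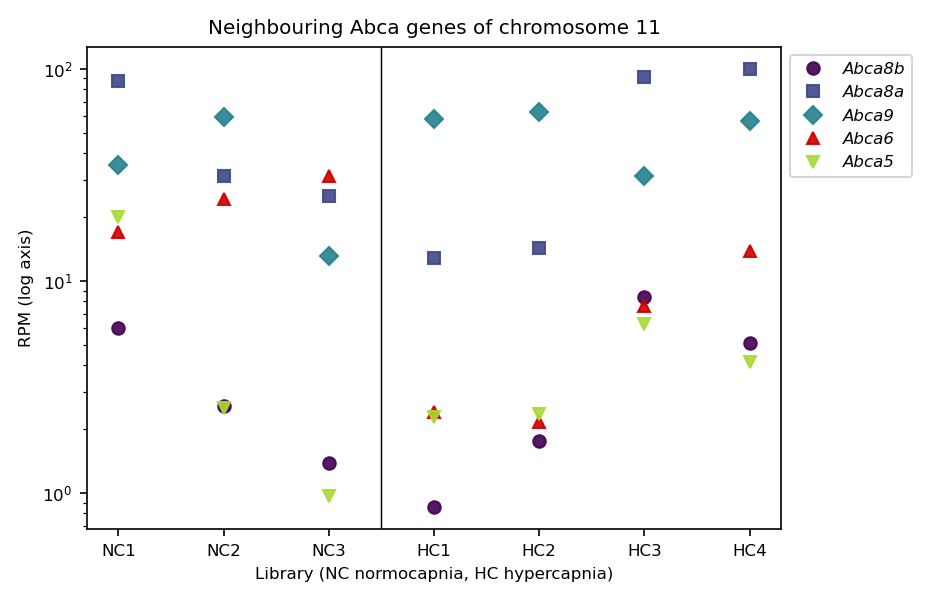
RPM on a log axis of the 5 neighbouring Abca genes of chromosome 11 in each library (NC normocapnia, HC hypercapnia), 1 marker shape per gene. Abca6 (triangles pointing up) runs from 16.9 to 31.3 RPM in normocapnia and from 2.16 to 13.8 RPM in hypercapnia, while Abca8a (squares) is highest in HC4, HC3 and NC1.

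Fibroblast genes varied with the same libraries. The fibro-adipogenic list summed to 3654, 2306 and 1690 RPM in normocapnia and to 1716, 1642, 3352 and 3964 RPM in hypercapnia, with 0 of its 14 genes called. It was high where Abca8a was high (NC1, HC3 and HC4) and low in HC1 and HC2, where Abca6 and Abca8a took their 2 lowest values. In NC3, however, the sum was low and Abca6 at its highest. The genes of the list did not move as one there, since the collagens Col1a1 (64.4 RPM), Col1a2 (104 RPM) and Col3a1 (0.964 RPM) had their lowest values in NC3, while Dcn (890.2 RPM) was at its highest of normocapnia. Lox, a collagen crosslinking enzyme, was the only 1 of the 14 whose groups did not overlap, at 60.1, 58.3 and 83.0 RPM against 26.9, 19.8, 54.0 and 46.7 RPM (a log2 fold change of -0.94, limma, unadjusted p = 0.0572), with its highest value in NC3 like Abca6. The part of these cells in the values of the Abca genes was not tested.

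Transporters of lysosomes and lipid storage vesicles included the ABC gene with the smallest p and the one nearest to a further call. Abca2 is an endolysosomal protein that affects sphingolipid and cholesterol traffic. Its promoter window is shown because no other member had a smaller p, with its GC box in capitals.

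Abca2, chr2:25428349-25428648, plus strand, GRCm38.p6: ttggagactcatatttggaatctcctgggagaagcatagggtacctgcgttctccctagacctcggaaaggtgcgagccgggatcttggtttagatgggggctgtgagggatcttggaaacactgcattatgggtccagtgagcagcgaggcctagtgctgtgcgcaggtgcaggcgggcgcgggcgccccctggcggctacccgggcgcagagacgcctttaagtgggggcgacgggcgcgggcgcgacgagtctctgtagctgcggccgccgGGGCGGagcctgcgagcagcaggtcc

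Abca2 read 51.0, 58.6 and 66.9 RPM in normocapnia and 38.1, 44.3, 46.8 and 42.0 RPM in hypercapnia. Every hypercapnia library lay below every normocapnia library. The means were 58.9 ± 7.94 and 42.8 ± 3.70 RPM, and the log2 fold change was -0.45 (SE 0.11, interval -0.73 to -0.16, limma, adjusted p = 0.827), short of 1.5-fold in limma on RPM. Each of the 7 fits without a library kept a log2 fold change between -0.54 and -0.35, and it was -0.40 within the Xist-high libraries and -0.58 within the others. With only genes at 1 RPM or more in the fit, the unadjusted p of Abca2 no longer passed 0.05 (limma, 0.116), nor did it in the Xist-high libraries alone. It also missed 0.05 with quantile normalization (a log2 fold change of -0.48), median-of-ratios scaling (-0.60), edgeR (-0.64 with the filter and -0.61 without) and DESeq2 (-0.68), although the last 4 of these fold changes were past 1.5-fold.

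Abcd4, which exports vitamin B12 from the lysosome, read 24.4, 17.2 and 4.75 RPM in normocapnia and 34.2, 35.1, 27.7 and 30.3 RPM in hypercapnia. All hypercapnia libraries lay above normocapnia, and the spread within normocapnia was wide because of NC3 (log2 fold change 1.24, SE 0.52, interval -0.07 to 2.55). It did not pass in the fit to all genes but did in 10 of 20 alternative settings, including edgeR (1.10), DESeq2 (1.06) and the fit without NC3 (0.60). Of 6 other genes that handle vitamin B12, 0 passed, and the one with the highest reads, the carrier Tcn2, read 130, 165 and 273 RPM against 239, 287, 208 and 200.3 RPM.

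Abca3, which loads phospholipid into lamellar bodies, read 22.7, 46.4 and 14.1 RPM against 34.3, 48.5, 28.7 and 26.7 RPM. Abcb9, a lysosomal peptide transporter, was among the steadiest members, with 1.70, 2.57 and 2.41 RPM against 1.63, 2.46, 2.19 and 2.57 RPM (a log2 fold change of 0.00, interval -0.38 to 0.37).

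**Figure D3:**
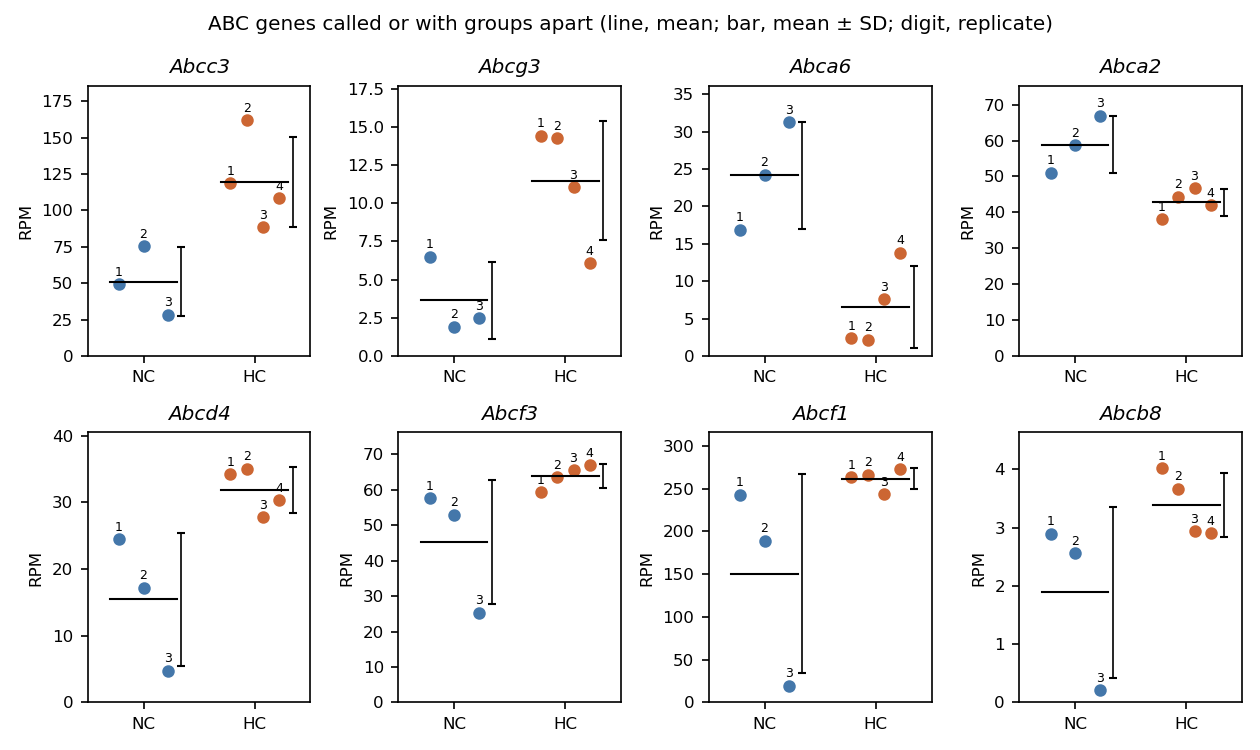
RPM of the 8 ABC genes that passed both thresholds or whose groups did not overlap, in normocapnia (NC, 3 libraries) and hypercapnia (HC, 4 libraries), with the replicate number at each point, the group mean as a line and the mean ± SD as a bar. For Abcd4, Abcf3, Abcf1 and Abcb8 the low point is NC3, at 4.75, 25.3, 19.4 and 0.207 RPM.

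Cholesterol efflux genes did not differ between the groups by more than their spread. Abca1 passes cholesterol and phospholipid to apolipoprotein A-I, and its window is shown for comparison with the nuclear receptor genes described next, with an E-box (CACGTG), GC boxes and a TATA box (TATAAA) in capitals. Only exact copies of the motifs searched are marked, so sites with other letters are not.

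Abca1, chr4:53159846-53160145, minus strand, GRCm38.p6: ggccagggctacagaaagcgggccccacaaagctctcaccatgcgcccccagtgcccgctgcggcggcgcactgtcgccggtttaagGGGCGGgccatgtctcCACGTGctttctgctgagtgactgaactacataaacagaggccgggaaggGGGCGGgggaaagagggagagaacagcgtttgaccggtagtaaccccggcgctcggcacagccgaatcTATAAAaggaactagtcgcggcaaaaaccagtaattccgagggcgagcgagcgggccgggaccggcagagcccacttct

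Abca1 read 162, 322 and 205 RPM in normocapnia and 227, 242, 136 and 123 RPM in hypercapnia. The groups overlapped, with NC2 highest and HC4 lowest, and the log2 fold change was -0.34 (SE 0.36, interval -1.24 to 0.56). Abcg1, which hands cholesterol to high-density lipoprotein, read 98.8, 160.1 and 71.5 RPM against 109.5, 124, 102 and 100.3 RPM (a log2 fold change of 0.06, SE 0.28, interval -0.63 to 0.75). Its hypercapnia libraries all lay inside the range of normocapnia. Abca7, a relative of Abca1 linked to phagocytosis, read 23.7, 34.4 and 7.78 RPM against 19.5, 18.1, 22.9 and 26.5 RPM. Abcg4 stayed at or under 0.342 RPM except in HC4 (1.15 RPM).

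Several genes that control or accompany sterol efflux did pass. Over 95 companion genes of the ABC pathways, listed apart from the 49, 5 were higher and 3 lower, or 8.42%, beside 2.57% of all genes, and 8.05% of the 87 at 1 RPM or more beside 4.75%. These lists were chosen with earlier results of these data known. The shares therefore cannot be read as an excess. None passed after adjustment (lowest adjusted p = 0.602, limma). Among 9 nuclear receptors that control efflux genes, Nr1h3 and Pparg were higher. Nr1h3 is LXR alpha, a sterol sensor that turns on Abca1, Abcg1 and Mylip. It read 8.56, 6.41 and 9.15 RPM in normocapnia and 21.2, 26.5, 14.2 and 19.5 RPM in hypercapnia (log2 fold change 1.22, SE 0.23, limma, adjusted p = 0.650). Pparg, a fatty acid sensor of adipocytes and macrophages, read 17.3, 16.5 and 12.4 RPM against 25.9, 31.4, 31.4 and 25.3 RPM (a log2 fold change of 0.85, SE 0.15, limma, adjusted p = 0.650). For both, no library of one group reached the other. Pparg passed in all 20 alternative settings and Nr1h3 in 19, failing under quantile normalization. Rxra, the shared partner of these receptors and the one with the highest reads on that list, did not pass at 205, 145 and 391 RPM against 170, 198, 208 and 218 RPM.

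Of 17 partners and other targets of sterol efflux, Stard4 was higher and Mylip lower. Stard4, which shuttles cholesterol through the cytosol, read 7.63, 4.36 and 6.06 RPM against 13.0, 13.2, 17.2 and 17.9 RPM (a log2 fold change of 1.23, SE 0.20, limma, adjusted p = 0.602). It kept its call in 19 of 20 alternative settings, all but the Xist-high libraries alone. Mylip, a ubiquitin ligase for the low-density lipoprotein receptor, read 95.3, 62.5 and 69.9 RPM against 49.9, 48.9, 44.6 and 46.2 RPM (a log2 fold change of -0.65, SE 0.15, limma, adjusted p = 0.772) and lost its call without NC1 and in the Xist-high libraries alone. Of the LXR targets named here, Mylip was lower while Abca1 and Abcg1 overlapped between groups. Over the whole list of 17, 12 log2 fold changes lay above 0 and 5 below. Genes of the list that did not pass went both ways, with Srebf1 at 0.63, Apoe at 0.39, Pltp at -0.28 and Lpl at -0.79. Whether LXR activity differed was not tested. Npc2, which moves cholesterol out of lysosomes and had the highest reads of the list, read 538, 1044 and 626 RPM against 1426, 1582, 833 and 1032 RPM (a log2 fold change of 0.74, SE 0.33) and did not pass. The macrophage marker Adgre1 was also higher, at 109, 149 and 70.5 RPM against 392, 429, 151 and 184 RPM. It was the only 1 of 15 macrophage markers that passed, beside 2.57% of all genes and 4.75% of those at 1 RPM or more. The other markers went both ways, with log2 fold changes of 0.59 for Cd68 and 0.46 for Fcgr1 but -0.14 for Csf1r and -0.12 for Itgam. Whether macrophage content had a part in the sterol genes or in Abcc3 was not tested.

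**Figure D4:**
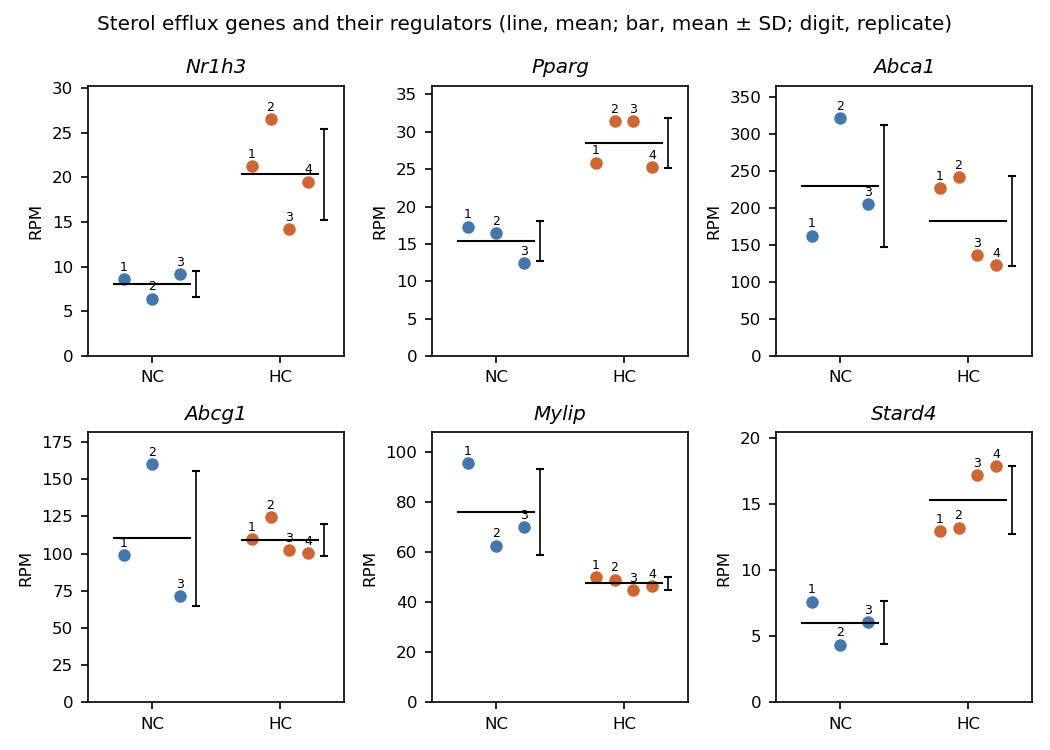
RPM of Abca1 and Abcg1 beside 4 genes that control or accompany sterol efflux, in normocapnia (NC, 3 libraries) and hypercapnia (HC, 4 libraries), with the replicate number at each point, the group mean as a line and the mean ± SD as a bar. The groups are separate for Nr1h3, Pparg, Stard4 (higher in hypercapnia) and Mylip (lower), and overlap for Abca1 and Abcg1.

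The ribosome-bound members had high reads and none passed. Abcf1, which promotes initiation of translation, read 243, 189 and 19.4 RPM in normocapnia and 263, 266, 244 and 273 RPM in hypercapnia. NC3 lay far below the other libraries for this gene, NC1 lay just under HC3, and the log2 fold change of 1.42 (SE 0.91) fell to 0.29 without NC3. Abcf3 behaved alike with 57.7, 53.0 and 25.3 RPM against 59.4, 63.6, 65.5 and 66.9 RPM (a log2 fold change of 0.57, and 0.20 without NC3). Abce1, which splits ribosomes after termination, went the other way in NC3, reading 156, 114 and 212 RPM against 119, 94.6, 156 and 123 RPM. Abcf2 read 76.8, 61.4 and 26.0 RPM against 59.8, 50.2, 53.3 and 48.3 RPM. Of 6 partners in recycling and translation 0 passed, and Gspt1, the release factor with the highest reads among them, read 411, 231 and 176 RPM against 344, 289, 339 and 388 RPM.

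Mitochondrial members of subfamily B did not pass. Abcb10, which takes part in heme formation, read 27.6, 15.6 and 9.84 RPM against 18.0, 17.8, 24.5 and 24.8 RPM. Abcb8 read 2.90, 2.57 and 0.207 RPM against 4.02, 3.67, 2.94 and 2.91 RPM. The groups of Abcb8 were separate by less than 1 read, since NC1 read 2.899 RPM (65 reads) and HC4 2.911 RPM (43 reads), and its log2 fold change of 0.77 (SE 0.44) fell to 0.23 without NC3. Of 15 genes for heme and iron-sulfur clusters, 0 were higher and 1 was lower, Alas1, the enzyme that begins heme synthesis, at 78.5, 106 and 157 RPM against 73.8, 62.8, 70.3 and 62.3 RPM (a log2 fold change of -0.69, limma, adjusted p = 0.915), called in 9 of 20 alternative settings.

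Peroxisomal members of subfamily D did not pass in either direction. Abcd3, a major peroxisomal membrane protein, read 61.2, 36.4 and 125 RPM against 57.5, 54.2, 55.5 and 47.7 RPM, where normocapnia held both extremes. Abcd2 lay between 6.68 and 14.7 RPM. Among 15 genes of peroxisome formation 1 was higher, Pex6, at 20.5, 21.1 and 12.5 RPM against 26.8, 33.1, 30.3 and 29.6 RPM (a log2 fold change of 0.73, limma, adjusted p = 0.852). It kept its call in 15 of 20 alternative settings and lost it without NC3, with the replicate block, under quantile normalization, in edgeR without a filter and in the Xist-high libraries alone. Pex13, with the highest reads on the list, was at 180.6 RPM in NC3 and at 58.0 to 70.5 RPM elsewhere.

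Multidrug members of subfamily B did not pass. P-glycoprotein is made from a pair of neighbouring mouse genes of near-identical sequence. Abcb1b read 27.0, 18.9 and 25.3 RPM against 23.1, 20.6, 26.6 and 24.7 RPM, at a log2 fold change of 0.01 with the narrow interval of -0.36 to 0.38. Abcb1a varied more, with 3.52, 1.71 and 2.34 RPM against 1.11, 1.51, 7.81 and 5.89 RPM, high in HC3 and HC4 as Abcg2 was. Abcb4, which flips phosphatidylcholine, read 8.48, 4.36 and 0.551 RPM against 3.04, 1.76, 2.94 and 6.84 RPM. Abcb5 and Abcb11, the latter the bile salt pump of liver, stayed at or under 0.125 RPM.

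Abcc9, the sulfonylurea receptor of vascular potassium channels, read 7.67, 2.78 and 0.964 RPM in normocapnia and 0.899, 1.06, 7.75 and 3.66 RPM in hypercapnia. Its 3 highest libraries, HC3, NC1 and HC4, came from both groups. Kcnj8, a pore subunit of the same channel, read 2.45, 0.898 and 0.620 RPM against 0.556, 0.10, 6.69 and 1.76 RPM, and Kcnj11 0.257 to 1.96 RPM against 0.301 to 5.08 RPM. Mural cell markers, among them Kcnj8, summed to 2002, 313 and 135 RPM in normocapnia and to 232, 178, 895 and 620.3 RPM in hypercapnia, highest in the same 3 libraries. Most of the sum in NC1 was Acta2, a smooth muscle actin, at 1674 RPM. The only 1 of the 10 mural genes measured that passed was Cspg4, at 9.41, 3.76 and 7.78 RPM against 10.5, 10.9, 16.1 and 11.6 RPM (a log2 fold change of 0.79, limma, adjusted p = 0.915), whose level in NC1 lay below all hypercapnia libraries. The part of mural cells in the Abcc9 values was not tested. Abcc8, the receptor of pancreatic islets, reached at most 0.214 RPM.

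The 16 genes under 1 RPM included 12 with at most 3 reads in each library. Abca12, Abca15 and Abcg8 were listed at 0 in all 7 libraries, which at these depths allows up to 0.128 to 0.207 RPM for counting error alone. The highest value among the 16 was the 1.15 RPM of Abcg4 in HC4, or 17 reads. Abca4 read 0.401, 0.342 and 0 RPM against 0 to 0.187 RPM, and the sterol exporter Abcg5 at most 0.043 RPM. None of the 16 passed.

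Subfamily B also holds the antigen peptide transporter, whose genes carry other names and so lie outside the 49. Tap1 read 49.6, 55.0 and 9.50 RPM in normocapnia and 70.8, 82.5, 65.2 and 48.7 RPM in hypercapnia, and Tap2 67.5, 72.0 and 9.50 RPM against 79.7, 90.3, 73.4 and 64.5 RPM. Both were far lowest in NC3 and neither passed (log2 fold changes 1.10 and 1.05). Cftr, a chloride channel of subfamily C, was listed at 0 throughout. Of 6 partners in peptide loading 1 passed, Calr, a chaperone, at 813 to 1331 RPM against 1335 to 1652 RPM (a log2 fold change of 0.60, limma, adjusted p = 0.915, called in 8 of 20 alternative settings), and B2m, the light chain of class I molecules, read 1688, 1742 and 6669 RPM against 2402, 2484, 1724 and 1385 RPM.

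**Figure D5:**
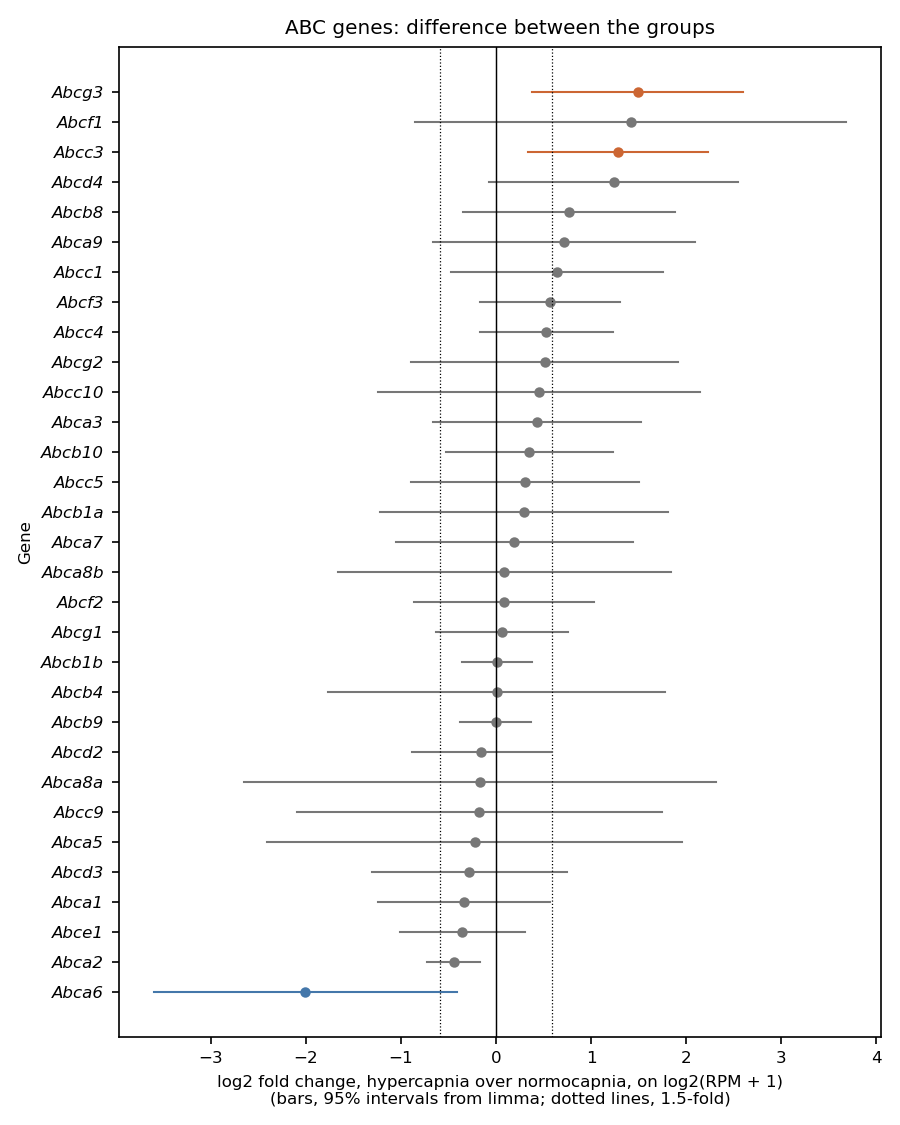
Difference between the groups as the log2 fold change (hypercapnia over normocapnia, on log2(RPM + 1)) of 31 ABC genes whose mean reached 1 RPM, with 95% intervals from limma and dotted lines at 1.5-fold. The colored genes passed both thresholds (Abcg3 at 1.49, Abcc3 at 1.28 and Abca6 at -2.01), and 27 of the 31 intervals include 0.

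Among the hypercapnia libraries themselves, HC3 and HC4 were higher than HC1 and HC2 for some members and lower for others. The difference in mean log2(RPM + 1), HC3 and HC4 minus HC1 and HC2, was 2.74 for Abca8a, 1.79 for Abca6, 1.76 for Abcb1a, 1.74 for Abca8b, 1.69 for Abcc9 and 1.14 for Abcg2. It was -0.92 for Abcc10, -0.85 for Abca1, -0.73 for Abcg3, -0.54 for Abca3 and -0.50 for both Abca9 and Abcc3. HC1 and HC2 held Xist and HC3 and HC4 did not. With this division as a term in the fit, added after the data were seen, Abcc3 (1.40), Abcg3 (1.59) and Abca6 (-2.22) kept their calls and Abcd4 (1.39) and Abcb8 (0.91) passed as well. Because normocapnia had only NC3 without Xist, the division and that library cannot be told apart there.

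Promoter windows of RefSeq, from 250 bases before to 50 after a gene's start, covered 37 of the 49 genes with 44 windows. The GC box was in 45.5% of these windows and in 35.7% of the 32851 windows of all genes, and the E-box in 13.6% and 7.15%, carried by Abca1, Abca15, Abca8a, Abca8b, Abcc4 and Abcf1. The CCAAT box (CCAAT) was in 34.1% and 37.4%, the TATA box in 13.6% and 13.6%, and the nuclear receptor half-site AGGTCA in 13.6% and 16.3%, all counted on both strands. Member windows also held more G and C, at a median of 58.5% against 52.7% in all windows. The part of this in the shares was not tested. A pair of half-sites spaced by 4 bases (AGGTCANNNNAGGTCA), a form bound by LXR with its partner, was searched in these exact letters only. It was in 0 of the member windows and in 5 of all windows. Sites with other letters, in the Abca1 window or elsewhere, were not searched, so the count does not show that LXR sites are absent. Abcc3 and Abca6 had no window in that table.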

How the data were processed

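Ion AmpliSeq libraries were read on an Ion S5 instrument, and the authors deposited RPM per gene (reads rescaled to the same sum in each library). The labels name the Transcriptome Analysis Console. Neither aligner nor genome build is given in the sources used here. Columns sum to 1000000 within rounding, 2443 genes are at 0 throughout, and 100% of values were whole reads within 0.05 of a read, so whole reads were recovered. The closest libraries, HC1 with HC2 and HC3 with HC4, differed beyond counting noise (chi-square over degrees of freedom 22.5 and 26.0). Floors cover counting error only, whereas intervals of differences come from the spread between libraries.

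Groups came from the sample labels. On log2(RPM + 1), all 23930 genes were fitted without a filter (limma 3.58.1, R 4.3.3), and p-values were adjusted over all of them. Folds on this scale understate changes of low genes. Called means an unadjusted p under 0.05 and a fold above 1.5. edgeR 4.0.16 and DESeq2 1.42.0 were run on the recovered reads. All fits were tested on simulated data. Members, role lists, companion lists and markers were chosen with earlier results of these data known. Described by name were called members, members at 1 RPM or more whose groups did not overlap, the 2 highest of each role, called companions and the highest of each companion list; further members are given to account for the set. Alternatives were other pseudocounts (0.1 and 5 RPM), a filter, scalings, a prior variance following the mean, leaving out each library and a replicate term. The use of Xist was chosen after the data were seen. All 49 symbols were found in the RefSeq gene table (GRCm38.p6), used for gene order and start windows. Abcb6 is not analysed here. Of the 49 genes, 2 enter the counts but are not reported here by name or plotted.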

Additional observations from a re-analysis of the deposited data

Results flagged for a closer look

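Of 33 ABC genes at 1 RPM or more, tested for a library far from the others within the 4 hypercapnia libraries, 1 was picked out. Abcc1 read 138.335 RPM in HC2, with the next library at 123.362 RPM and the remaining pair at 121 RPM, a gap of 0.843 of the group's range, past the 95% critical value of Dixon's test. Chance picks out about 1 in 20 groups.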

How the results depend on the processing

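Refitted values under 20 alternatives were kept for 12 ABC genes, those called in any setting and those whose groups did not overlap. Abca2, Abcf1 and Abcf3 passed the fold and p thresholds together in none of the 20, although each crossed 1 of the thresholds in some of them, and Abcc3 kept its call in 19. Abcg3 lost its call in 4 (quantile normalization, without NC2, without NC3 and the Xist-high libraries alone) and Abca6 in 3. Abcd4 gained a call in 10. The log2 fold change of Abcb10 reversed, from 0.35 to -0.20, in the Xist-high libraries alone. The number of ABC genes higher in hypercapnia, 2 in the fit reported, ran from 2 to 4 when 1 library was left out, with 4 without NC1 (Abcb10, Abcc3, Abcd4 and Abcg3) and 4 without NC2 (Abca3, Abcc1, Abcc3 and Abcc4). The number lower ran from 0 to 1, with 0 without NC2, NC3 or HC1. With Xist as a covariate 4 were higher, and in the Xist-high libraries alone 0 were. Companion genes higher, 5 as reported, ran from 4 to 11 on leaving out 1 library, with 11 without NC1 and 8 without NC2, and came to 3 with edgeR without a filter and 8 with the Xist covariate. Companion genes lower, 3 as reported, ran from 1 to 4 on leaving out 1 library (1 without HC4), and came to 1 with the filter at 1 RPM, 1 with quantile normalization, 5 with edgeR without a filter, 5 with DESeq2, 6 with the Xist covariate and 1 in the Xist-high libraries alone. The cause was not tested. Counts of all genes called were 615 with limma, 802 with edgeR and 1304 with DESeq2.

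Whether equal replicate numbers pair the libraries could not be settled. Deviations from the group means of same-numbered libraries correlated at -0.35, 0.50 and -0.04, and those of other pairs at -0.42 to 0.45. Deviations within a small group depend on each other, so these correlations cannot exclude a pairing. With the replicate block, over replicates 1 to 3 of each group, 2 ABC genes were higher and 1 lower, Abcg3 (1.74), Abcc3 (1.32) and Abca6 (-2.43), as in the fit to these 6 libraries without the term, where 1 companion gene was lower. Genes under the floor of 3 reads, 0.128 to 0.207 RPM, cannot show a difference.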
